A study of Mus musculus with 2 samples.

Results

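The arms of miR-203 and miR-205, microRNAs known from keratinocytes, were read on 2 microRNA arrays, 1 for unwounded mouse skin and 1 for unwounded mouse oral mucosa. The members were the 4 microRNAs whose probes are named mmu-miR-203-3p, mmu-miR-203-5p, mmu-miR-205-5p and mmu-miR-205-3p (mmu for mouse), out of 1892 probes for mature mouse microRNAs on each array. They were chosen by name, with earlier results of these data known. A pool of total RNA from 3 animals, 2 µg of it, was labelled for each tissue, the skin and mucosal samples are described as matched, and the study's methods describe its mice as female Balb/c aged 8 to 10 weeks. The labels name skin and oral mucosa and a passage of the methods speaks of epithelium, so that the amount of tissue beneath the epithelium is not known. No treatment or genetic change separated the groups, so that the tissue was the labelled difference. With 1 array per tissue there was no replicate across pools and no test between the tissues. Every difference below is one between 2 arrays, and an SD comes from the 2 repeat spots of a probe and covers technical error within an array only.

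A microRNA is cut from a hairpin precursor, whose arms are called 5p and 3p. In general one arm is loaded into the silencing complex as the guide, while the other is mostly lost. The guide pairs with messenger RNAs chiefly through its seed, bases 2 to 8. In the skin, miR-203 is known from the suprabasal layers, where it restrains p63, the factor that maintains the proliferating basal cells. MiR-205 is known from stratified epithelia, where it supports the growth of epidermal progenitors, and with the miR-200 family it represses Zeb1 and Zeb2, factors of the epithelial to mesenchymal transition. The known guide arms are miR-203-3p and miR-205-5p.

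The target sequences of the 4 probes are shown because the arms of these hairpins differ in seed and because a probe can read only what resembles its target. They are as deposited, 5′ to 3′, each 22 bases long, with the seed in capitals.
mmu-miR-203-3p: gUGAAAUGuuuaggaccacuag
mmu-miR-203-5p: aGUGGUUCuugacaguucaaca
mmu-miR-205-5p: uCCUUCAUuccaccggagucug
mmu-miR-205-3p: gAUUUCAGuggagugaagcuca
All 4 were identical to the mature sequences of the same name in RefSeq (GRCm38.p6). The 4 seeds differ from each other, and 0 of the other probes on the array had the seed of any of them at bases 2 to 8. The G and C content was 40.9% for both arms of miR-203, 54.5% for miR-205-5p and 45.5% for miR-205-3p, against a median of 52.2% over all targets.

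The hairpins show how the arms lie in their precursors, with both arms in capitals.
Mir203: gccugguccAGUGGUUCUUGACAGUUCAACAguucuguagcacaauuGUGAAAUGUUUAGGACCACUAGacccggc
Mir205: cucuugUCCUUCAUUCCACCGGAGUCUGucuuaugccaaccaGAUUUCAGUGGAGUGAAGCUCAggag
Mir203 lies at chr12:112130880-112130955 on the plus strand and Mir205 at chr1:193507463-193507530 on the minus strand of GRCm38.p6. The span of Mir205 falls within that of the long noncoding RNA gene Mir205hg, its host gene by name. Whether it is exonic there was not determined here. The span of Mir203 overlaps that of Mir203b (Gm51289), annotated on the opposite strand. Consequently miR-203b-5p (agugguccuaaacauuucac) is the exact complement of 20 bases of miR-203-3p, and it was not analysed here.

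The probes of both guide arms were among the brightest on either array. Signals are the median Cy5 brightness of a spot in scanner units, without background subtraction. The repeat spots are called upper (rows 10 to 15) and lower (rows 123 to 128) after their row number on the array. The skin array read miR-205-5p at 27133 on the upper spot and 17697 on the lower spot, a mean of 22415 ± 6672 (SD, 2 spots). The oral mucosa array read it at 25885 and 17460, a mean of 21673 ± 5958. Thus the tissues differed less than the repeat spots of either array did before normalization, with a change in the mean of -3.31% from skin to oral mucosa.

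The second guide arm gave the same picture. The skin array read miR-203-3p at 21637 on the upper spot and 15832 on the lower spot, a mean of 18734 ± 4105. The oral mucosa array read it at 20259 and 16747, a mean of 18503 ± 2483. The upper spots were higher in skin and the lower spots higher in oral mucosa, and the mean changed by -1.23% from skin to oral mucosa.

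The other arms were read far closer to the background. Detection required a mean signal over that of the 16 control spots of the empty type plus 3 of their SD, which was 59.9 for skin and 71.8 for oral mucosa. Of these spots 12 are named empty and 4 BKG0, and the kinds differed, with means of 32.5 and 47.8 in skin and 54.7 and 43.3 in oral mucosa. The 12 alone would set limits of 37.0 and 63.8, the former below the median probe of the skin array, 42.2, and all 4 members passed these limits too. The probe of miR-203-5p read 211 and 163 in skin, a mean of 187 ± 33.9, and 212 and 169 in oral mucosa, a mean of 191 ± 30.7. It was detected on both arrays, at 3.13 times the limit in skin and 2.66 times in oral mucosa. That of miR-205-3p read 86.9 and 72.5 in skin, a mean of 79.7 ± 10.2, and 112 and 87.7 in oral mucosa, a mean of 100 ± 17.5. It was also detected on both arrays, but at only 1.33 and 1.39 times the limit, so that its values depend on the background. With the limits from the 12 spots these multiples were 2.16 and 1.57, and those of miR-203-5p were 5.07 and 2.99.

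**Figure D1:**
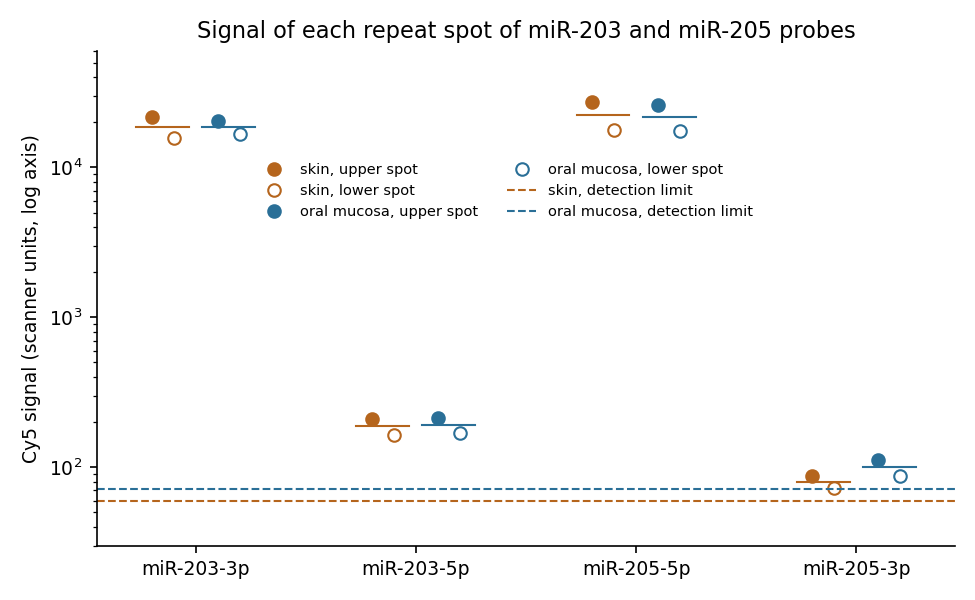
Cy5 signal (scanner units, log axis) of the upper (filled) and lower (open) spot of each probe on the skin and oral mucosa arrays, with the mean as a bar and the detection limits of 59.9 and 71.8 as dashed lines. The guide arms miR-203-3p and miR-205-5p lie between 15832 and 27133 on both arrays, the arms miR-203-5p and miR-205-3p between 72.5 and 212, and in each pair of spots the upper one is brighter.

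All 4 probes were detected on both arrays, which 394 of the 1892 probes were. Ranks are given for the mean signal, with 1 as the brightest. Brightness also depends on how well a probe binds, so that a rank is no order of amounts. MiR-205-5p ranked 2 and miR-203-3p ranked 3 of 1892 on the skin array, and both ranks were the same on the oral mucosa array. MiR-203-5p ranked 185 in skin and 222 in oral mucosa, and miR-205-3p ranked 332 and 363. Among the values processed by the authors the guide arms again ranked 2 and 3 on both arrays.

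Of the signal above these 16 control spots, summed over the detected probes of an array, miR-205-5p made up 6.25% in skin and 5.18% in oral mucosa. MiR-203-3p made up 5.22% in skin and 4.42% in oral mucosa. Together they held 11.5% of this signal in skin and 9.60% in oral mucosa. These shares are of brightness and not of RNA, and they do not depend on how the arrays were scaled to each other.

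**Figure D2:**
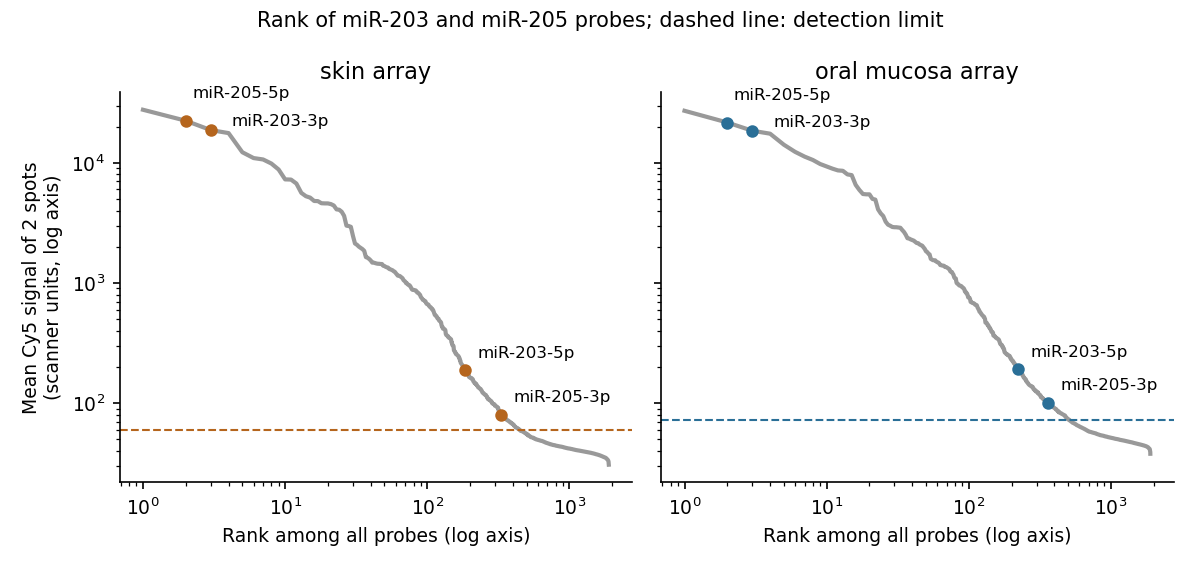
Mean Cy5 signal (scanner units, log axis) of all 1892 probes against their rank (log axis) on the skin and oral mucosa arrays, with the 4 members as points and the detection limit as a dashed line. The guide arms hold ranks 2 and 3 on both arrays, whereas the other arms lie at ranks 185 and 332 in skin and 222 and 363 in oral mucosa.

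The neighbours of the guides in rank were the same for both tissues, as all of the ranks 1 to 7 were. MiR-709 ranked 1, at 27677 ± 1599 in skin and 27133 ± 929 in oral mucosa. MiR-341-5p ranked 4, at 17691 ± 939 and 17488 ± 4034, and miR-23a-3p ranked 5, at 12253 ± 386 and 14153 ± 625. On the skin array the spots of miR-203-3p lay on either side of both spots of miR-341-5p, so the order of the ranks 3 and 4 was within the repeat-spot error. The lower spot of miR-203-3p in skin and its upper spot in oral mucosa, each ranked among spots of the same position, came to rank 4. The rank of miR-205-5p was 2 on either spot of either array.

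To compare the tissues, the signals went through VSN (variance stabilizing normalization), which the study's methods name. It fits an offset and a scale to each array, and its values run like log2 where the signal is high. For oral mucosa the fitted scale was 1.37 times the one for skin, so equal raw signals came out lower for oral mucosa. The VSN log2 value of miR-205-5p was 14.45 in skin and 13.94 in oral mucosa. The oral mucosa minus skin difference was thus -0.51, and its SD over repeat spots was 0.59. That of miR-203-3p was 14.19 and 13.71, a difference of -0.48 (SD 0.37). For miR-203-5p it was 7.22 and 6.72, a difference of -0.51 (SD 0.45). For miR-205-3p it was 5.39 and 5.29, a difference of -0.10 (SD 0.59). All 4 differences were below 0 on this scale. Those of both arms of miR-205 were smaller than their SD, and those of the miR-203 arms exceeded theirs slightly.

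A microRNA was taken to differ when the tissues stood at least 2-fold apart on the VSN scale, by 1 in log2. By this size rule 0 of the 4 members differed. Of the 562 microRNAs above the limit in skin, oral mucosa or both, 160 met the rule, or 28.5%, and of these 77 (13.7% of the 562) read higher in oral mucosa and 83 (14.8%) read higher in skin. This share of 28.5% was lower under other normalizations, at 14.2% for quantile, 15.1% for median scaling and 18.1% for none, and in the last 80 read higher in oral mucosa and 22 in skin. With VSN and the detection limit from the 12 spots named empty the share was higher, at 61.5% (987 of 1604), and 0 members met the rule. Among the 394 detected on both arrays, as the members were, the rule was met by 104, or 26.4%. The median difference over the 562 was -0.00. Of these 562, 50.4% had a difference at least as large in size as that of miR-205-5p and 52.1% one as large as that of miR-203-3p, so both guides lay near the middle of the differences by size. On the VSN scale the repeat spots of the tissues did not overlap for miR-203-3p and miR-203-5p and overlapped for both arms of miR-205. Such spots without overlap were common, in 67.8% of the 394 probes detected on both arrays.

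**Figure D3:**
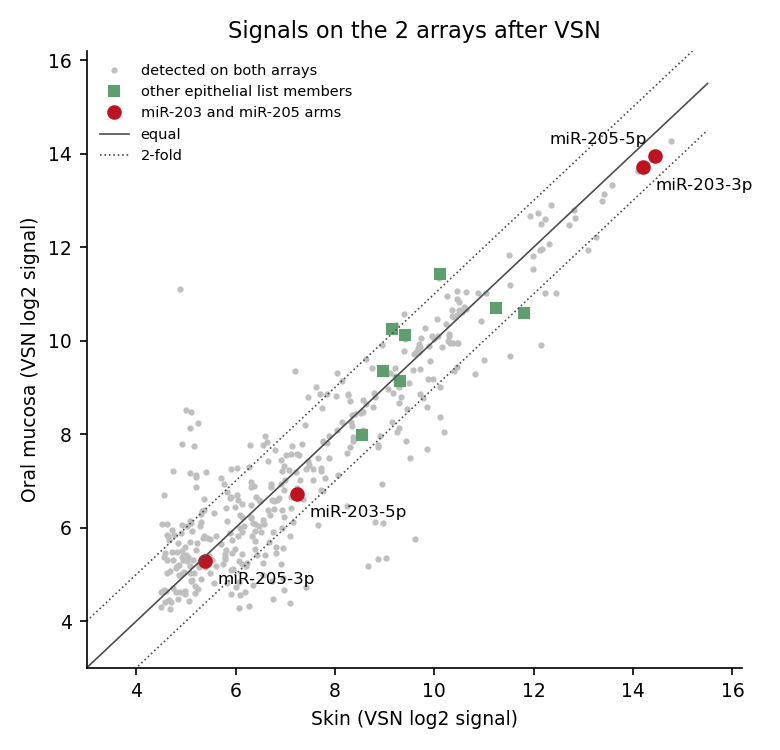
VSN log2 signal in oral mucosa against skin for the 394 probes detected on both arrays (grey), with the miR-203 and miR-205 arms (red), other detected members of the epithelial list (green squares), the line of equal signal and dotted lines at a 2-fold difference. The 4 red points lie between the dotted lines, at differences of -0.51 to -0.10.

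How the arrays were scaled moved the size of the members' differences, and for miR-203-5p and miR-205-3p also the sign. Without normalization the log2 difference was -0.049 for miR-205-5p, -0.018 for miR-203-3p, 0.025 for miR-203-5p and 0.33 for miR-205-3p, while the median of all detected microRNAs was 0.40. Relative to that median the guides stood at -0.44 and -0.41, in the same order, close to their VSN values. With scaling to the medians of the arrays miR-205-5p was at -0.35 and miR-203-3p at -0.32. With the processed values of the authors, as log2(value + 50), they were at -0.37 and -0.33. MiR-205-3p was at 0.023 with scaling to the medians. With quantile normalization both were at 0.00, because this method gives probes of the same rank the same value and the ranks 2 and 3 were held in both tissues. Under the planned normalizations none of the 4 members passed the size rule.

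**Figure D4:**
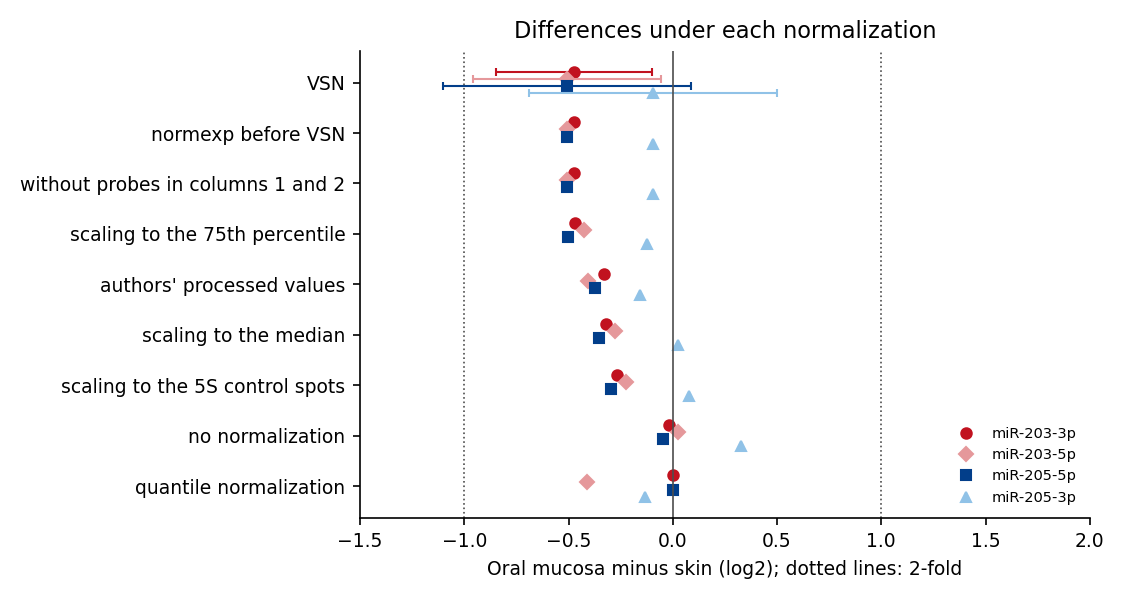
Oral mucosa minus skin difference (log2) of the 4 members with VSN, with bars for the SD from repeat spots, and under 8 other settings, with dotted lines at a 2-fold difference. The values run from -0.51 to 0.33 and stay between the dotted lines, and the bars of both miR-205 arms cross 0.

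Some neighbours in brightness had VSN differences close to those of the guides. By distance between the VSN values of the 2 arrays, the microRNAs nearest to miR-203-3p were miR-341-5p (distance 0.12), miR-205-5p (0.35) and miR-23a-3p (0.73). Nearest to miR-205-5p were miR-203-3p (0.35), miR-709 (0.45) and miR-341-5p (0.46). The difference was -0.47 (SD 0.35) for miR-341-5p, -0.49 (SD 0.10) for miR-709 and -0.25 (SD 0.08) for miR-23a-3p. All 10 probes of highest mean signal had a VSN difference below 0, with a median of -0.43, and without normalization their median was 0.031. These 10, which include both guides, ran from -1.05 to -0.025. Over the brightest 20 the median was -0.24 with 15 below 0, and over the brightest 50 it was -0.10 with 27 below 0.

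Whether signals this bright still rose in proportion to the RNA was not tested. Control spots on the same arrays reached 60167 in skin and 51562 in oral mucosa, above the brightest spots of the members. The probes for 5S ribosomal RNA, a small RNA carried as a control, read from 6507 to 29628 in skin, a range that holds the guides, and were not equal on the arrays. One of them gave 21892 ± 1514 (SD, 4 spots) in skin and 31688 ± 2993 in oral mucosa, 1.45 times as much. Over the 5 probes for 5S ribosomal RNA the oral mucosa signal was 1.09 to 1.63 times that of skin, and scaling to their median put miR-205-5p at -0.30 and miR-203-3p at -0.27.

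The position of the spots moved with the members' repeat-spot error. All lower spots of the members lay in column 3, beside columns 1 and 2, where lower spots on the skin array were dim. There the upper spot was 4.19 times as bright as the lower one in skin (median of 8 probes detected on both arrays) and 1.30 times in oral mucosa. In column 3 it was 1.32 times in skin and 1.32 times in oral mucosa (median of 6 probes, 4 of them the members). Over the other 380 probes detected on both arrays the median ratio was 1.14 in skin and 1.08 in oral mucosa. These ratios cover only probes detected on both arrays. They leave out miR-204-5p, detected in oral mucosa only, whose lower spot lay at row 126 of column 3 and whose oral mucosa spots were far apart (106 ± 77.8). The other two there, miR-200b-3p and miR-200c-3p, gave 1.30 and 1.34 in skin and 1.35 and 1.39 in oral mucosa. A window of 3 rows and columns around the lower spots takes in columns 1 and 2, where lower spots in skin were dim. The detected spots of other microRNAs in this window were higher in oral mucosa. Their median difference was 2.11 for the miR-203 arms (6 spots) and 1.11 for the miR-205 arms (3 spots). Around the upper spots this median ran from -1.25 to -0.0072. These neighbours are different microRNAs, and the part of position in the members' values was not tested. For single members this ratio ran from 1.20 for miR-205-3p to 1.53 for miR-205-5p in skin and from 1.21 for miR-203-3p to 1.48 for miR-205-5p in oral mucosa. The brighter upper spot was thus common to both arrays, and differences between spots at the same position varied less than the SD. On the VSN scale miR-205-5p gave -0.53 on the upper and -0.48 on the lower spots, and miR-203-3p gave -0.55 and -0.38. MiR-203-5p gave -0.52 and -0.49, and miR-205-3p gave -0.028 and -0.20.

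Few other targets on the array resembled the members. Read in the same direction, the longest run of bases that a guide arm shared with another target was 8, and the targets sharing it with miR-203-3p, miR-421-5p and miR-7224-3p, were not detected. Those sharing 8 with miR-205-5p were miR-135b-5p, not detected, and miR-7033-5p, at 161 ± 1.56 in skin and 111 ± 5.54 in oral mucosa. The closest resemblance was to miR-205-3p, of which miR-6397 holds 14 bases, shown in capitals in both.
miR-205-3p: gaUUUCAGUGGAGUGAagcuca
miR-6397: uggagacUUUCAGUGGAGUGA
The probe of miR-6397 was not detected, at 40.3 ± 2.19 in skin and 48.3 ± 3.95 in oral mucosa.

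The guides were set beside the other microRNAs of a list for epithelium, namely the miR-200 family, the cluster of miR-183, miR-96 and miR-182, and miR-31. Of these 9 microRNAs 8 were detected, with a median difference of 0.10, and miR-96-5p was not. With both guides included the median was -0.32, and it was above 0 with quantile normalization (0.048) and without normalization (0.14). Past the size rule were 3 of the 8, against 28.5% of all detected microRNAs. With quantile normalization it was 2 of the 8, against 14.2%. MiR-31-5p, known to promote keratinocyte growth, was higher in oral mucosa, at 1150 ± 67.1 in skin and 3795 ± 335 there, by 1.30 (SD 0.16). MiR-429-3p of the miR-200 family was higher by 1.12 (SD 0.89), an SD that came mostly from unlike spots in skin, 602 ± 326. MiR-200c-3p was lower in oral mucosa, at 3618 ± 744 in skin and 2149 ± 492, by -1.22 (SD 0.46). The remaining 5 lay between -0.55 for miR-183-5p and 0.70 for miR-200a-3p. Without normalization miR-31-5p, miR-429-3p and miR-200c-3p were at 1.72, 1.52 and -0.75 and miR-200a-3p at 1.12. The count past the rule was thus 2 higher in oral mucosa and 1 in skin with VSN, 2 and 0 with quantile normalization, and 3 and 0 without normalization. With VSN the guides fell within the range of the list. As these are 2 pools of tissue, fewer cells of a type and less of a microRNA per cell cannot be told apart.

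Of 9 microRNAs listed for epidermal differentiation and growth, 8 were detected, with a median of 0.33 with VSN and 0.74 without normalization. Past the rule was 1 of the 8, against 28.5% of all detected microRNAs. MiR-214-3p, also listed for mesenchyme, passed the rule at 2.17 (SD 0.19). MiR-24-3p, known from keratinocyte differentiation, was at -0.21 (SD 0.10) and was the only 1 of the 8 below 0. Above 0 were miR-574-3p at 0.41, miR-34a-5p at 0.34, miR-27b-3p at 0.32 and miR-21a-5p at 0.17. MiR-34c-5p, at 0.11, was detected in oral mucosa only. The value of miR-125b-5p, 0.35 (SD 6.87), rests on a lower skin spot in the dim columns.

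Markers of other cells differed in how they moved with the tissue. Summed signals in the following sentences include the array background of undetected probes, which read higher in oral mucosa, so the sums above the median probe of each array follow in brackets. Of the 6 listed for smooth muscle and fibroblasts 5 were higher in oral mucosa by the size rule (4 with quantile normalization, with each scaling of the arrays and with the processed values), against 13.7% of all detected microRNAs, with a list median of 1.63 (1.08 to 1.63 over all normalizations), and their summed signal was 694 in skin and 2034 in oral mucosa (440 and 1721 above the median probe). The remaining one, miR-152-3p, was at -0.71 (SD 0.29). Their brightest was miR-214-3p, at 184 ± 19.0 and 948 ± 11.8. MiR-143-3p, a defining marker of smooth muscle, was not detected in skin (57.0 ± 0.44) and read 170 ± 4.03 in oral mucosa, so that the detection filter set its direction. Among the 5 detected on both arrays 4 passed the rule. Of the red blood cell list, miR-451a was at 67.3 ± 7.34 in skin and 3056 ± 171 in oral mucosa, whereas miR-144-3p was not detected on either array. The listed miR-486a-5p and miR-486b-5p were not analysed here. The summed signal of the other two was 105 and 3106 (20.2 and 3001). Of the endothelial list, the probe of miR-126a-3p passed the limit in oral mucosa alone (155 ± 51.0) and that of miR-126a-5p on neither array, both with a lower skin spot in the dim columns and with summed signals of 81.6 and 200.2 (-2.90 and 95.8). Of the 5 leukocyte microRNAs miR-150-5p was detected, in oral mucosa only (248 ± 37.5), and the sum was 222 and 459 (10.5 and 198). Both arms of miR-142, a defining marker of blood cells, were among the 4 not detected on either array. For melanocytes miR-204-5p was detected in oral mucosa only (106 ± 77.8) and miR-211-5p on neither array, with sums of 91.6 and 158 (7.14 and 53.6), and it did not pass the size rule, at 0.98 (SD 3.00), although it did with the processed values (1.25). Of the 5 listed for skeletal muscle 3 were detected and 0 passed the rule, against 28.5% of all detected microRNAs. The list sums were 336 and 474 (125 and 213). The brightest, miR-206-3p, read 146 ± 26.5 and 177 ± 1.34, with a difference of -0.19 (SD 0.36). MiR-133a-3p, at 0.71 (SD 0.24), and miR-133b-3p, at 0.53 (SD 0.13), were detected in oral mucosa only, so that the detection filter set their direction. The median of this list was 0.53 with VSN and 0.14 with quantile normalization. The red blood cell, endothelial, leukocyte and melanocyte lists thus rested on 1 detected microRNA each. The part of these cells in the values of miR-203 and miR-205 was not tested.

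The microRNAs of the Hox gene clusters, which mark body position, read as follows. Of the 5 listed, 3 were detected, all in skin only, so that the detection filter set the direction of their differences and their count is no support for it. All 3 passed the size rule with VSN, where 14.8% of all detected microRNAs were higher in skin, and 2 passed it with quantile normalization or none. MiR-10b-5p read 1955 ± 140 in skin and, under the limit, 58.0 ± 15.9 in oral mucosa. MiR-10a-5p read 349 ± 20.6 and 47.2 ± 10.95, miR-196a-5p read 98.2 ± 5.11 and 41.7 ± 2.55, and miR-196b-5p and miR-615-3p were detected on neither array. The summed signal of the 5 was 2508 and 248 (2296 and -12.7). As none of the 3 was detected in oral mucosa, the lowest detected signal there stood in, on the scale of each normalization. The VSN differences were -6.67 for miR-10b-5p, -4.05 for miR-10a-5p and -1.68 for miR-196a-5p. They exceed in size the log2 ratios of the probes' own mean signals, -5.07, -2.89 and -1.24 in the same order. The VSN differences are thus no bounds on a fold. The list median of -4.05 was -2.28 without normalization and -2.59 with quantile normalization. Without the probes in columns 1 and 2 only miR-196a-5p was left, at -1.67.

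**Figure D5:**
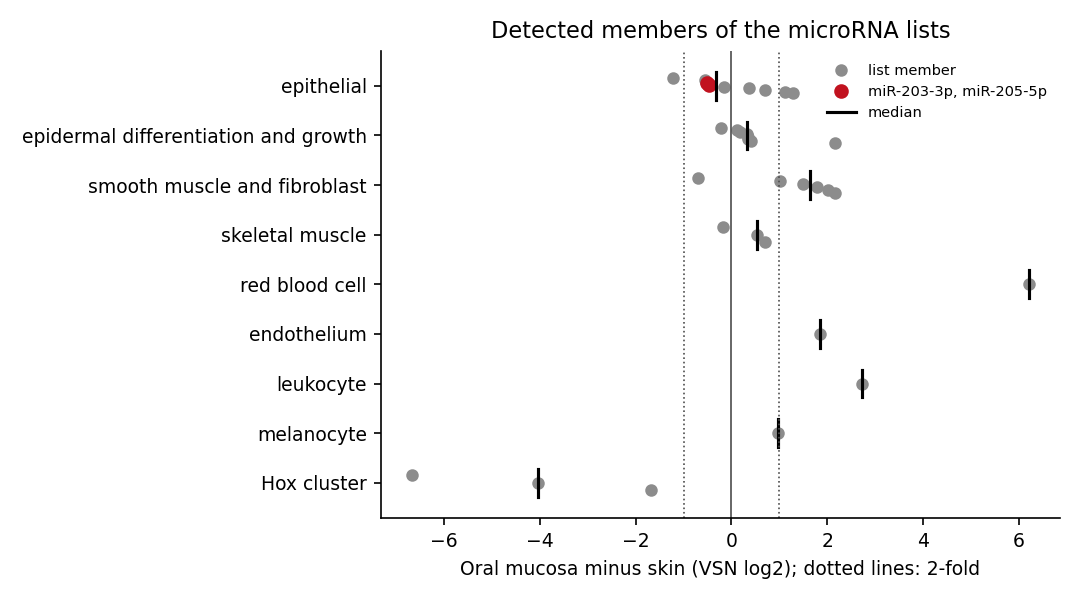
Oral mucosa minus skin difference (VSN log2) of the detected members of each list, as points, with the list median as a bar and dotted lines at a 2-fold difference. For a microRNA detected on 1 array the lowest detected signal stands in on the other array. The red points, miR-203-3p and miR-205-5p, lie at -0.48 and -0.51, the smooth muscle and fibroblast list has a median of 1.63 (1.08 to 1.63 over all normalizations) and the Hox cluster list one of -4.05 (-4.05 to -2.28 over all normalizations).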

How the data were processed

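RNA was hybridised by a service provider to miRmouse v21 arrays with Cy5 as the only dye. For each array the authors deposited the scanner intensity of every spot, with neither background subtraction nor scaling between arrays. They also deposited a processed intensity per microRNA, in whole numbers, by a method not given in the sources used here, and its scale between arrays is unknown. Its median over the probes was 4 on each array. The 2 spots of a probe were averaged. Precision is limited by having 1 array for each tissue.

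VSN was fitted on all 1892 probes (arsinh, maximum likelihood, least trimmed squares keeping 90% of probes in each of 5 slices except the dimmest). It gave an offset of 37.9 in skin and 46.3 in oral mucosa. A microRNA detected on 1 array was set against the lowest detected signal of the other, unless its own was higher. The SD of a difference is the root of the summed repeat-spot variances, taken over the arrays that detected the microRNA. The microRNAs named were the members, list members, rank neighbours and the 3 nearest in VSN values. The other microRNAs named were chosen after their values were seen, for resemblance of sequence. Members and lists were chosen with earlier results of these data known. Alternatives covered normalization, background correction (normexp, offset 50), detection, thresholds, single spots and edge columns. Listed names without a probe were looked up by RefSeq sequence. List medians and counts under other settings, list sums above the median probe and the limit from the 12 spots named empty were added after seeing the data. Software was Python 3.11.15, numpy 2.4.6, scipy 1.17.1, pandas 2.3.3, matplotlib 3.10.9, R 4.3.3 and limma 3.58.1.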

Additional observations from a re-analysis of the deposited data

How the results depend on the processing

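The difference of miR-203-3p, -0.48 with VSN, moved beyond its repeat-spot SD to 0.00 with quantile normalization and -0.018 without normalization, as the construction of these methods and the fitted scale imply. It stayed within that SD under the other settings, as did that of miR-205-5p under all settings run. MiR-203-3p ranked 4 in place of 3 on the lower spot in skin and on the upper spot in oral mucosa. The count past the size rule, 160, fell to 80 after quantile normalization, to 85 when arrays were scaled by the median or by the 75th percentile, to 102 without normalization and to 87 with the processed values. It was 82 with scaling to the 5S control spots, a setting chosen after seeing the data. It was 987 of 1604 with the detection limit taken from the 12 spots named empty, also chosen after seeing the data, since 1600 probes then counted as detected in skin. It was 577 without a detection filter, 104 with detection on both arrays, 256 when 1.5-fold sufficed and 46 when 4-fold was required, by construction. For the normalizations the cause was not tested. Of the microRNAs past the rule, 48.1% were higher in oral mucosa with VSN, 78.4% without normalization and 59.8% with scaling to the 5S spots. Signal over background limits the values of miR-205-3p. No paired analysis was possible because there is only 1 array for skin and 1 for oral mucosa.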
